A study of Mus musculus with 4 samples.

Results

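Among the Adipoq-expressing stromal cells of 16-month mouse bone marrow, 164 cells carried the transcripts of Cxcl9, a chemokine that draws activated T cells, and Iigp1, an interferon-inducible GTPase. They made up 5.64% (95% interval 4.83 to 6.54%) of the 2908 Adipoq stromal cells of that library, of 6143 cells that passed the quality filter there and 24084 in the whole series. A cell belonged to the Adipoq stromal gate if it held at least 80 Cxcl12 and 8 Adipoq transcripts per 10000 unique molecular identifiers (UMIs, counts of single captured RNA molecules) and 0 UMIs of Ptprc, the pan-leukocyte gene. Within that gate, a member held at least 2 UMIs of Cxcl9 and 1 of Iigp1. The 1257 gate cells with 0 UMIs of both served as comparison cells, and the 1487 others are called the cells between.

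The library came from the study of Td+ cells sorted from the endosteal marrow of male Col2:Td mice (Col2-Cre Rosa26 lsl-tdTomato, strain B6SJL/F1), in which Col2-Cre, a driver active in cartilage and the mesenchymal lineage, switches on the tdTomato reporter. Each age was 1 library of pooled mice, with 2 mice at 1 month and 3 mice each at 1.5, 3 and 16 months. With 1 library per age there is no replicate, so no test was made, and age and library cannot be told apart. With mice pooled, whether the members came from 1 mouse or from all 3 cannot be told apart either. All intervals below are 95% intervals that cover counting error only.

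Cells with high Adipoq, Cxcl12 and Lepr in the marrow are the perivascular stroma that the study calls marrow adipogenic lineage precursors (MALPs), and they are known as a source of niche factors for blood formation. Interferons act through JAK kinases and STAT factors, which bind GAS elements mainly after interferon-gamma and, with Irf9, ISRE elements after type I interferons. Target genes include the immunity-related GTPases (IRG) and guanylate-binding proteins (GBP), which attack vacuoles that hold pathogens, the chemokines Cxcl9 and Cxcl10, antiviral effectors, and the peptide-loading machinery of MHC class I.

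Cxcl9 and Iigp1 chose the members, so their values are a description. The members held 2 to 438 UMIs of Cxcl9 per cell with a median of 4, and 1 to 65 UMIs of Iigp1 with a median of 3. Their summed level was 1861 counts per 1000000 UMIs (CPM) of Cxcl9 and 738 CPM of Iigp1, against 51.8 and 213 CPM in the cells between. Members held 82.1% of all Cxcl9 UMIs of the gate but 30.7% of its Iigp1 UMIs. The 11 members just inside the thresholds (2 UMIs of Cxcl9 and 1 of Iigp1) had a summed IRG and GBP level, without Iigp1, of 472 CPM. The 124 cells with 1 UMI of Cxcl9 and at least 1 of Iigp1 lay just outside at 443 CPM, and the 60 cells with at least 2 of Cxcl9 and 0 of Iigp1 at 355 CPM.

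The cells were checked against markers that the rule did not use. Members expressed the stromal genes Lpl (lipoprotein lipase, 3017 CPM), Hp (haptoglobin, 7732 CPM), Apoe (8145 CPM), Kitl (stem cell factor, 1481 CPM) and Lepr (777 CPM). The 10 T and NK cell markers gave 0 UMIs in the members and 0.55 CPM in comparison cells. The 10 macrophage markers summed to 61.6 CPM in members and 69.8 CPM in comparison cells. The members were deeper, with a median of 11552 UMIs per cell against 8896, and had a median of 3.78% mitochondrial UMIs against 3.68%.

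Endothelial RNA moved with the members. Of the 164 members, 142 held 0 UMIs of the 7 endothelial markers, and 8 (4.88%) held 3 to 96 UMIs each, which came to 95.3% of all endothelial UMIs of the members. Of the comparison cells, 14 (1.11%) held 3 or more. These 8 members were deep, with a median of 19885 UMIs, and carried 559 CPM of Ubd, which encodes a ubiquitin-like modifier, and 6095 CPM of Fabp4. Without such cells, Ubd was at 0.535 CPM in the other 156 members and 0.837 CPM in 1243 comparison cells, and Fabp4 at 171 and 154 CPM. The counts below are given with all members and, where they differ, also without the cells that held 3 or more endothelial UMIs.

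Of 7984 genes with a mean of at least 10 CPM over members and comparison cells and at least 20 UMIs, 94 were at least 2-fold higher in members (1.18%) and 10 at least 2-fold lower (0.125%). Without the cells with endothelial RNA, 56 of 7929 genes were higher (0.706%) and 16 lower (0.202%). The 5 genes of the rule were left out of all counts. Among the 20 largest ratios with every member counted were Selp, Lipg, Stab2, Kdr, Plvap, Cldn5 and Cdh5, endothelial genes that no longer reached the minimum once the 8 cells were left out. Kdr and Cdh5 are among the markers that chose those cells. In the 156 other members the 20 largest ratios belonged to genes of the IRG, GBP, antiviral and chemokine lists and Tap1, apart from Gm4841, Ly6a, Fam26f, Meg3 and Foxq1. These were on none of the lists, which need not hold every gene of a family. Gm4841 gave 44 UMIs in these members and 5 in comparison cells. Ly6a, which encodes Sca-1, was at 19.3 against 1.58 CPM, and Fam26f at 40.7 against 3.91 CPM. The 36 UMIs of Ly6a lay in 11 of the 156 members, with 14 in 1 cell, and the 76 of Fam26f in 31 members. For Meg3 and Foxq1, 1 cell held 84 of 114 and 28 of 38 UMIs.

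The IRG genes encode GTPases that load onto the membranes of pathogen vacuoles. Of the 14 listed, 12 besides Iigp1 were in the gene table and 8 reached the minimum. All 8 were at least 2-fold higher in the member cells, with a median ratio of 6.56, against 1.00 over all genes measured. Irgm1, a regulator of the family, stood at 80.4 CPM in members and 10.5 CPM in comparison cells, a ratio of 7.63 (5.97 to 9.77). Tgtp2 was at 46.8 against 4.86 CPM, 9.64-fold (6.82 to 13.8). Ifi47 was at 117 against 21.4 CPM, 5.50-fold (4.57 to 6.61). Igtp (8.27-fold) and Irgm2 (4.42-fold) overlap on chromosome 11, so reads could have been split between them. The smallest ratio of the list was that of Gm4951, at 2.07 (1.85 to 2.31). Without the cells with endothelial RNA, all 8 were again at least 2-fold higher, with a median of 6.90.

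The GBP genes encode larger GTPases of the same defence. Of the 11 listed, 4 reached the minimum, and all 4 were at least 2-fold higher in members, with a median ratio of 4.55, and 4.82 without the cells with endothelial RNA. Gbp2 (GRCm38, chromosome 3, 142620602 to 142638008) stood at 357 CPM (331 to 384) in members and 54.8 CPM (50.5 to 59.4) in comparison cells, 6.51-fold. Gbp5, which also serves inflammasome assembly, was at 67.1 against 11.8 CPM, 5.67-fold. Gbp7 (3.44-fold) and Gbp3 (3.04-fold) followed. Gbp6 fell under the minimum of 10 CPM, with 33 UMIs in members (16.3 CPM) and 10 in comparison cells (0.917 CPM). Gbp4 gave 9 UMIs in members and 0 in comparison cells, a ratio of 16.1 with the comparison group set to a floor of 3 counts. Members of both families are close paralogs, and reads could be split among them.

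Cxcl10, which shares the receptor Cxcr3 with Cxcl9 and lies beside it on chromosome 5 (92346638 to 92348889, Cxcl9 at 92321347 to 92328079), was at 1340 CPM (1290 to 1392) in members. The cells between had 178 CPM and the comparison cells 154 CPM (146 to 161), so the ratio was 8.73 (8.21 to 9.28). The gene was unevenly spread, since 76 of the 164 members held 0 UMIs of it, the median member held 1 and the highest 214. Of the 171 gate cells with at least 10 UMIs of Cxcl10, 41 were members, which is 25% of the members. At 50 or more UMIs, 18 of 24 gate cells were members and 6 were cells between. The other measured chemokines of the list, Cxcl16 (1.45-fold) and Cx3cl1 (1.07-fold), stayed under 2-fold.

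Of the antiviral list, 16 of 32 measured genes were at least 2-fold higher in members (15 of 32 without the cells with endothelial RNA) and none was 2-fold lower, with a median ratio of 1.94. Ifit3 and Ifit1, of which Ifit1 binds foreign RNA caps, were 8.15-fold (5.22 to 12.9) and 4.13-fold higher. Zbp1, a sensor of Z-form nucleic acid, was at 50.8 against 11.5 CPM, 4.40-fold. Isg15, the ubiquitin-like tag, was at 170 CPM (152 to 189) against 55.6 CPM (51.3 to 60.2), 3.05-fold. Rsad2, which encodes viperin, had a ratio of 5.54, but 22 of its 35 UMIs came from 1 member. The abundant membrane restriction factor Ifitm3 was at 2335 against 1760 CPM, 1.33-fold, and Bst2 (tetherin) was 1.78-fold higher.

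In the signalling list, 5 of 20 measured genes were at least 2-fold higher. Irf8, a transcription factor of the interferon response, was at 96.2 CPM (83.1 to 111) in members and 37.5 CPM (33.9 to 41.3) in comparison cells, 2.57-fold, and Irf7 had a ratio of 2.48. Nlrc5, the transactivator of MHC class I genes, was at 2.02 and Stat2 at 2.01. The receptor chains were near 1, with ratios of 1.07 for Ifngr1, 1.00 for Ifngr2, 0.851 for Ifnar1 and 0.968 for Ifnar2. Irf1 was abundant in both groups at 774 and 642 CPM, a ratio of 1.21, and the feedback inhibitor Socs1 had a ratio of 1.53.

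Of the 22 measured MHC class I genes, 20 had a ratio above 1, with a median of 1.30, but only Tap1 passed 2-fold, at 119 against 37.7 CPM (3.15-fold, 2.68 to 3.71). Tap1 encodes a subunit of the transporter that carries peptides into the endoplasmic reticulum. The immunoproteasome subunits Psmb9 (1.86), Psmb10 (1.83) and Psmb8 (1.79) came next. The class I heavy chains H2-K1 (1.11) and H2-D1 (1.01) and their partner B2m (1.15) were close to the comparison cells. Of the MHC class II list, 1 of 11 genes could be measured, and none was 2-fold higher.

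Among immune ligands and receptors, 1 of 7 measured genes passed 2-fold (1 of 6 without the cells with endothelial RNA), Il18bp (31.6 against 10.8 CPM, 2.92-fold), the secreted decoy that binds Il18. Cd274, which encodes the checkpoint ligand PD-L1, fell under the minimum, with 22 UMIs in members (10.8 CPM) and 25 in comparison cells (2.29 CPM), a ratio of 4.73 (2.54 to 8.75). Among genes on none of the lists, singled out after their values were seen, AW112010 stood at 254 against 106 CPM (2.40-fold), the chemokine Cxcl13 at a ratio of 2.05 and the stress cytokine Gdf15 at 2.40.

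The stromal programme was close in both groups. Of 20 measured MALP identity genes, Fabp4 alone passed 2-fold, at 3.79-fold with all members and 1.11-fold without the cells with endothelial RNA, and the median ratio of the list was 0.961. Lpl (0.967), Apoe (0.972) and Pparg (1.24) were near 1, Hp was at 1.19 and Lepr at 0.830 (0.787 to 0.876). None of the 11 niche genes, 8 complement genes or 12 stress and immediate early genes reached 2-fold in either direction. Over all 7984 measured genes, 1.18% were at least 2-fold higher and 0.125% lower, so lists this short would be expected to hold few or none. Kitl stood at 0.938, Csf1 at 0.872 and Il7 at 1.02. Of 15 acute phase and NF-kB genes, Saa3 was 3.14-fold higher and Cxcl2 was lower at a ratio of 0.462, while Ccl2 was at 1.23 and Il6 at 0.705. For Saa3, 52 of 82 UMIs in the 156 members came from 1 cell.

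**Figure D1:**
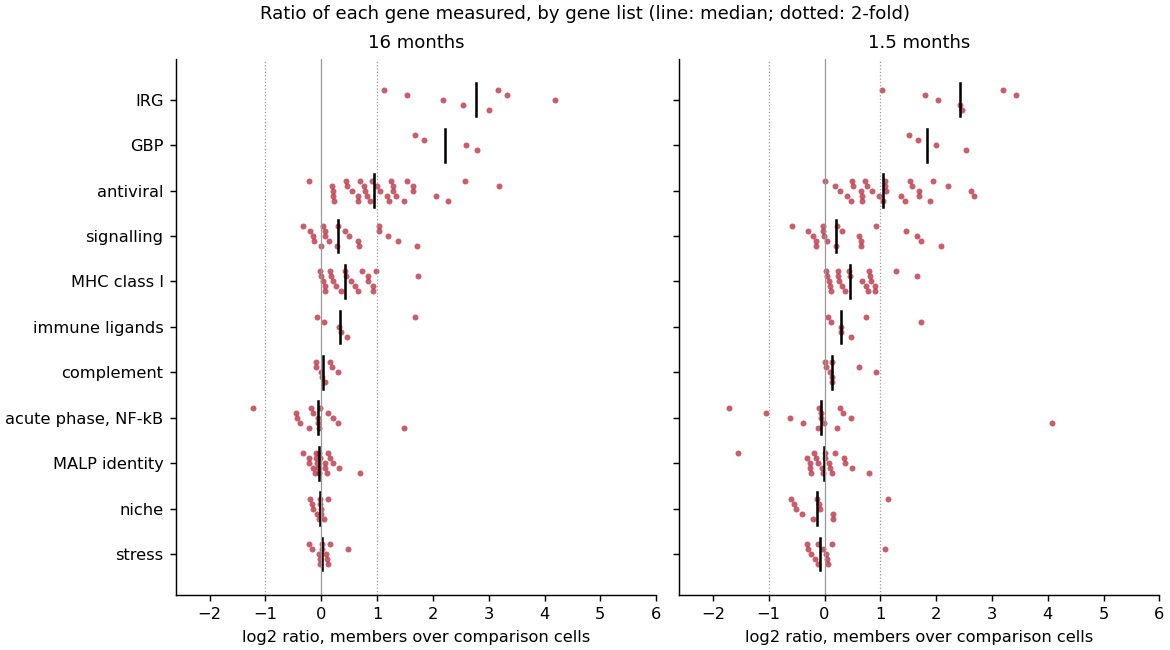
Log2 ratio of members over comparison cells for each measured gene of 11 gene lists, in the 16-month library (left) and the 1.5-month library (right), without cells with 3 or more endothelial UMIs. Each point is a gene, black lines are list medians and dotted lines mark 2-fold; at 16 months all 8 IRG and all 4 GBP genes lie right of the upper dotted line, while the MALP identity, niche and stress genes lie within the dotted lines.

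The lower genes were few. With all members, the 10 were Klf5 (0.315), Mfap3, Hbb-bt, Hbb-bs, Rassf5, Hba-a2, Cxcl2, Frmd4b, Mex3d and Rasl11b. The globin genes came from few cells, since 5 comparison cells held 67.4% of the comparison group's UMIs of the 7 erythroid markers. In the members, 1 cell held 1251 of 2540 such UMIs (49.3%). The median cell held 4.5 such UMIs in members and 3 in comparison cells. For Cxcl2, 1 cell held 28 of the 65 UMIs in the 156 members and 1 cell held 114 of the 873 in comparison cells. Without the cells with endothelial RNA all 5 measured erythroid genes were at least 2-fold lower, at 661 against 2836 CPM in sum. Leaving those cells out took the members' sum from 2540 to 1235 UMIs and the comparison cells' sum from 30579 to 30495.

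Other lineage lists were also summed. The 8 osteoblast markers summed to 2508 CPM in members and 3393 CPM in comparison cells, the 8 neutrophil markers to 292 and 257 CPM, the 7 B lineage markers to 735 and 800 CPM and the 7 chondrocyte markers to 126 and 126 CPM. The 7 mural markers stood at 116 and 74.2 CPM, and at 63.1 and 74.5 CPM without the cells with endothelial RNA. Of the cell death list 1 of 7 measured genes passed 2-fold, Ubd, and 0 of 6 without the cells with endothelial RNA. None of the 3 measured cell cycle genes did, nor of the 2 measured without the cells with endothelial RNA. The part of neutrophil, osteoblast and erythroid RNA in the ratios was not tested.

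The sequences upstream of the higher genes are shown because many of these genes hold an interferon-type motif, a feature that the rule did not use. The 250 bases before each transcription start were taken from the RefSeq promoter table (GRCm38.p6). They were searched on both strands for the ISRE letters, which are GAAA, any 2 bases and GAAA again, and the GAS letters TTCNNNGAA. Of the 56 genes at least 2-fold higher without endothelial RNA, 43 were in the table, and 21 of these (48.8%) held the ISRE letters, against 3.44% of 6247 measured genes and 3.46% of all 27025 genes in the table. Of 10 measured IRG and GBP genes in the table, 8 held the ISRE letters (80%). The GAS letters were in 6 of the 43 genes (14.0%), 5 of the 10 IRG and GBP genes and 6.69% of measured genes. Of the MHC class I list, 3 of 20 genes (15%) held the ISRE letters. Windows of 30 bases around ISRE matches follow, 5′ to 3′ on the gene's strand, with the matched letters in capitals. On the other strand the ISRE letters read TTTC, any 2 bases and TTTC. Matches of both motifs may overlap. Related genes can share bases here, as Ifi203 and Mndal did over all 30 bases around a match, so the genes counted are not independent.
Cxcl10 (chr5:92349083-92349112, minus strand): tcacgctttgGAAAGTGAAActtacctcac
Gbp2 (chr3:142620594-142620623, plus strand): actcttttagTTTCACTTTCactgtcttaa
Gbp5 (chr3:142496759-142496788, plus strand): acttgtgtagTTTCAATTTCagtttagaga
Gbp7 (chr3:142530273-142530302, plus strand): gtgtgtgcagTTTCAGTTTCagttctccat
Irgm1 (chr11:48871425-48871454, minus strand): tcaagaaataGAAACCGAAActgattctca
Tgtp2 (chr11:49064263-49064292, minus strand): tccaggaatcGAAACCGAAAcctactctga
Igtp (chr11:58199512-58199541, plus strand): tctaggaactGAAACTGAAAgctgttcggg
Irgm2 (chr11:58214903-58214932, plus strand): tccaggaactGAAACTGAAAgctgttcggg
Isg15 (chr4:156200871-156200900, minus strand): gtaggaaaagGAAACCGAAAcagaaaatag
Ifit3 (chr19:34583397-34583426, plus strand): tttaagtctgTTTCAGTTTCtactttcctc

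In Tgtp2, Igtp and Irgm2 the GAS letters stood 11 bases upstream of the ISRE letters, with their first bases at -81, -45 and -75 from the start site and those of the ISRE at -70, -34 and -64. Cxcl9 held neither motif in this window, which says only that these letters are not in these bases. Tgtp2, Igtp and Irgm2 are of the IRG family and share bases in these windows, so the spacing is not a separate case in each. A match is a description of the sequence and not a measured binding site, and whether or which interferon acted was not tested.

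The member cells differed greatly among themselves. The summed IRG and GBP level without Iigp1 had a median of 616 CPM per cell in the 156 members without endothelial RNA and 255 CPM in the 1243 comparison cells. The ranges overlapped widely, with 67 members (42.9%) above the ninetieth percentile of comparison cells (725 CPM) and 172 comparison cells (13.8%) above the members' median. The highest member reached 10776 CPM and the highest comparison cell 3578 CPM.

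**Figure D2:**
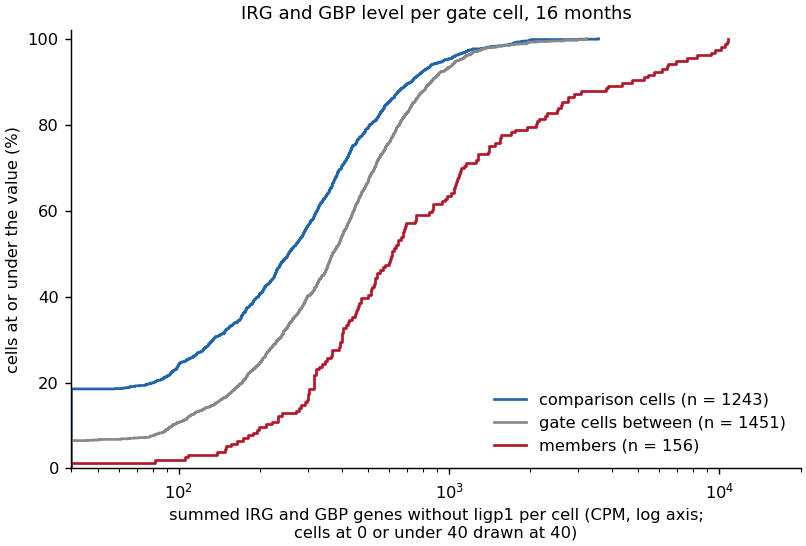
Cumulative share of 16-month gate cells (y axis, %) by the summed CPM of the IRG and GBP genes without Iigp1 in each cell (x axis, log scale), for 156 members, 1451 cells between and 1243 comparison cells, all with fewer than 3 endothelial UMIs. The member curve lies to the right, with a median of 616 CPM against 255 CPM in comparison cells, and has a long upper tail.

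The summed level differed by Cxcl9 count. The 67 members with 2 to 3 UMIs of Cxcl9 had 621 CPM of summed IRG and GBP genes (569 to 676), the 35 with 4 to 9 had 907 CPM (818 to 1004), and the 31 with 10 to 39 had 1252 CPM (1139 to 1374). The 23 members with 40 or more UMIs stood apart at 4928 CPM (4660 to 5208), against 316 CPM in comparison cells. Single cells overlapped widely. The median cell was at 533, 626 and 529 CPM in the first 3 classes and at 5446 CPM in the 23 cells. These 23 ranged from 164 to 10776 CPM, and 3 of them lay below the median of all 156 members, while the highest cell of the 10 to 39 class reached 7566 CPM. Depth was similar in these 4 classes, with medians of 10528 to 11649 UMIs. Cxcl9 chose the members, so this order is a description of how genes varied together within them.

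Cxcl10 stood out in the 23 cells and did not rise between the 2 lowest classes. It was found in 46.3%, 45.7% and 45.2% of cells in the first 3 classes and in 87.0% of the 23 cells. It was at 496, 472 and 730 CPM in the first 3 classes, whose intervals overlapped for the lower pair, and at 6821 CPM (6504 to 7149) in the 23 cells. Gbp2 was at 115, 135, 393 and 1630 CPM, and Tap1 at 62.8, 94.4, 174 and 313 CPM. Cd274 was found in 0 of the 67 members with 2 to 3 Cxcl9 UMIs and in 43.5% of the 23 cells, against 2.01% of comparison cells. The MHC class I genes together spanned a smaller range, with 13892 CPM in comparison cells, 14354 and 14904 CPM in the lower classes and 18418 and 18722 CPM in the upper classes. Adipoq was between 1696 and 1963 CPM in the 4 classes and 1940 CPM in comparison cells. The gate required at least 8 Adipoq transcripts per 10000 UMIs in every one of these cells, so its level is a description. Lepr was lower in the upper classes, at 918, 789, 733 and 584 CPM against 937 CPM in comparison cells.

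**Figure D3:**
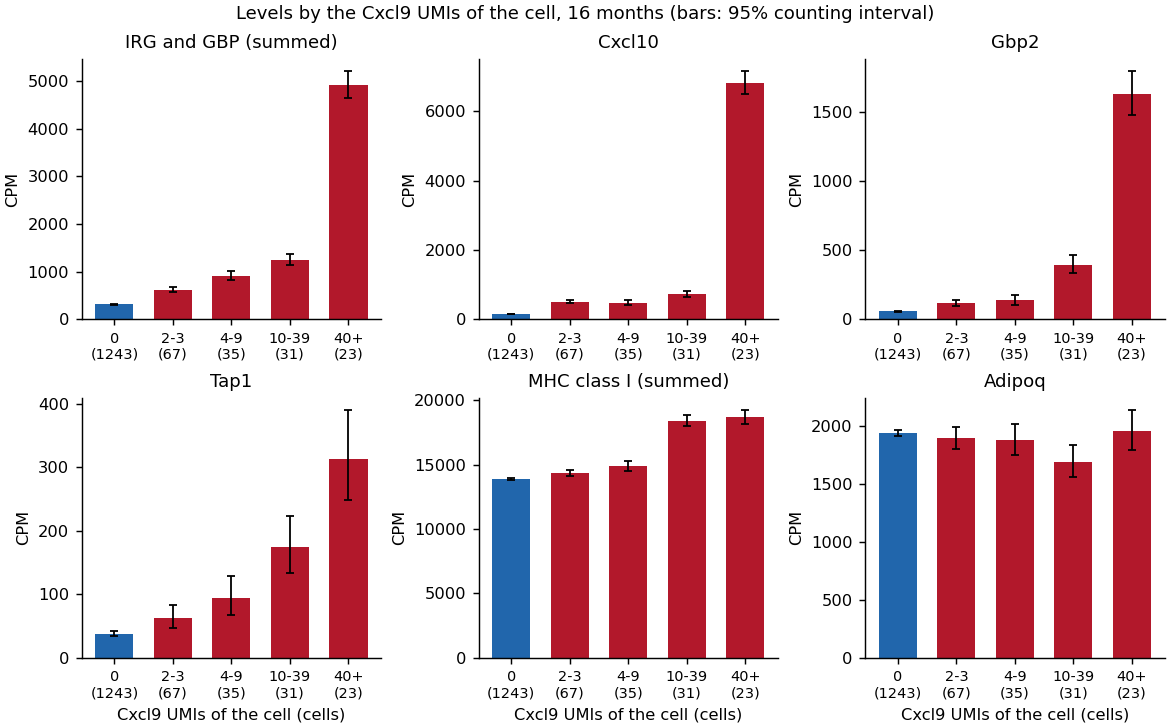
Level (CPM, y axes from 0) of summed IRG and GBP genes, Cxcl10, Gbp2, Tap1, summed MHC class I genes and Adipoq in 16-month comparison cells (blue) and in members grouped by their Cxcl9 UMIs (red), with cell numbers in brackets and 95% counting intervals. The 23 cells with 40 or more Cxcl9 UMIs reach 4928 CPM of IRG and GBP genes and 6821 CPM of Cxcl10. Adipoq, which the gate required in every cell, is between 1696 and 1963 CPM in the members.

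Without the 54 members that held 10 or more Cxcl9 UMIs, and without endothelial RNA, 44 genes were at least 2-fold higher in the remaining members and 29 lower. With those 54 members kept, 56 of 7929 genes were higher (0.706%) and 16 lower (0.202%). The genes measured were not counted again for the smaller group, so 44 and 29 have no share beside them. In the remaining members, 7 of 8 IRG genes passed 2-fold with a median ratio of 3.29, and 2 of 4 GBP genes with a median of 2.05. Other lists lost most of their higher genes, with 6 of 30 antiviral, 1 of 20 signalling, 0 of 22 MHC class I (highest ratio 1.95) and 0 of 6 immune ligand genes past 2-fold. Cxcl10 had a ratio of 3.27. The cells between had 417 CPM of IRG and GBP genes and all comparison cells 315 CPM.

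Free RNA in the droplets can give UMIs to cells that do not express a gene, so other cells of the same library were examined. The 230 cells of the neutrophil gate (high S100a8 and S100a9) had 0.531 CPM of Cxcl9, 1.59 CPM of Iigp1 and 13.8 CPM of Cxcl10. The 349 osteoblast gate cells (Ibsp and Bglap) had 1.96 CPM of Cxcl9 and a median depth of 20569 UMIs, and none met the Cxcl9 and Iigp1 thresholds (0 of 349, where a floor of 3 counts allows a share of up to 0.860% and the exact interval reaches 1.05%). When each cell was thinned to 3000 UMIs, a Cxcl9 UMI was found in 0.483% of neutrophil gate cells (median depth 7188.5 UMIs before thinning) and 8.24% of all Adipoq stromal gate cells (median 9632).

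Endothelial gate cells (Cdh5 and Pecam1) also held these transcripts. Of 63 such cells, 15 (23.8%, 14.0 to 36.2%) met the Cxcl9 and Iigp1 thresholds, and the group had 172 CPM of Cxcl9, 526 CPM of Iigp1, 346 CPM of Cxcl10 and 648 CPM of Ubd. Of 34 T and NK gate cells, 1 met the thresholds. The endothelial gate and the T and NK gate also held stromal RNA, with 132 and 70.8 CPM of Adipoq. The neutrophil gate had 17.5 CPM of it and the osteoblast gate 22.4 CPM. The T and NK gate cells were deep, with a median of 32691.5 UMIs. The part of mixed cells in these values was not tested. In 2 small gates Cxcl10 summed to 495 CPM (19 mural gate cells) and 1491 CPM (16 early progenitor gate cells). After thinning, 8 of the 19 and 2 of the 16 cells held a UMI of it. Cxcl9 was at 32.6 CPM in the mural gate, where 4 of the 19 cells (21.1%, 6.05 to 45.6%) held a UMI after thinning. It was at 0 CPM in the early progenitor gate. Iigp1 was at 81.6 and 91.6 CPM in these 2 gates and Adipoq at 169 and 25.0 CPM. The part of mixed cells here was not tested either. None of the cells of these 2 gates met the thresholds, with exact intervals that reach 17.6% and 20.6%.

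The interferon genes themselves were hardly seen in this library of sorted Td+ cells. Marrow cells outside that sort were not measured, so their level of these genes cannot be told. In the 34 T and NK gate cells Ifng was at 18.3 CPM. Ifng was found in 7 of 6143 cells with 24 UMIs in all, of which 6 cells held Ptprc, and in 0 of 164 members, where the floor of 3 counts allows a share of up to 1.83% of cells with a UMI. None of the 13 interferon and cytokine ligand genes reached the minimum in members and comparison cells.

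**Figure D4:**
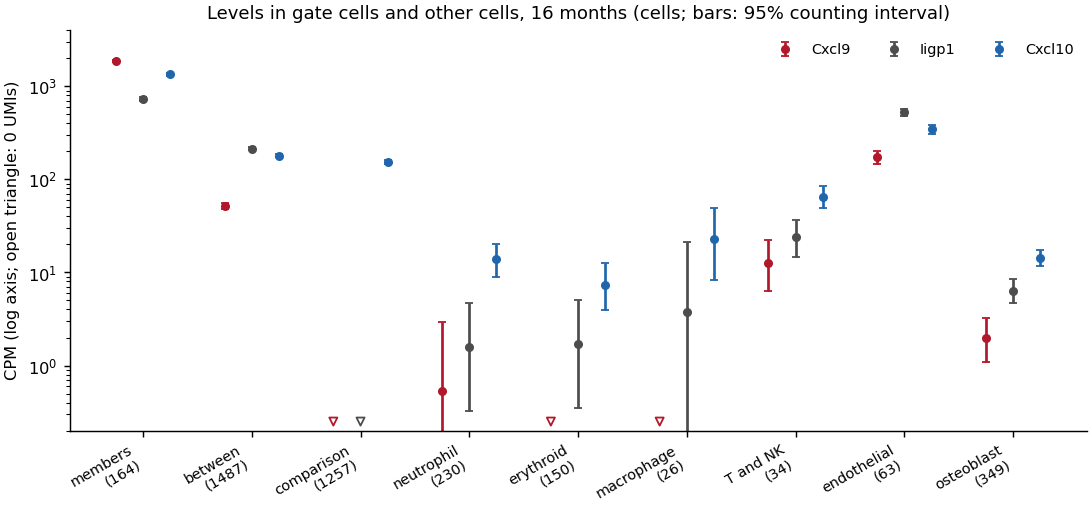
Level (CPM, log axis) of Cxcl9, Iigp1 and Cxcl10 in the members, the cells between and the comparison cells and in other cell gates of the 16-month library with at least 20 cells (numbers in brackets, 95% counting intervals, open triangles for 0 UMIs). Outside the Adipoq stromal gate, among the gates drawn, the 63 endothelial gate cells have the highest levels, 172, 526 and 346 CPM, and neutrophil, erythroid, macrophage and osteoblast gate cells stay under 25 CPM.

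The same rule found 7 members of 166 gate cells at 1 month (4.22%, 1.71 to 8.50%), 93 of 1182 at 1.5 months (7.87%, 6.40 to 9.55%), 2 of 348 at 3 months (0.575%, 0.0697 to 2.06%) and 164 of 2908 at 16 months (5.64%). The gate cells differed in depth, with median UMIs of 7255, 5981.5, 3938.5 and 9632. When every gate cell was thinned to 3000 UMIs, the shares were 2.41%, 4.23%, 0.328% and 2.22% (61 of 2743 cells at 16 months). The shallower cells left out were few, since 305 of 348 gate cells stayed at 3 months, 2743 of 2908 at 16 months and all at 1 and 1.5 months. The 1.5-month library had the highest share and the 3-month library the lowest, and their intervals did not overlap before or after thinning. After thinning the interval of the 16-month share (1.71 to 2.85%) lay below that of 1.5 months (3.16 to 5.54%) and overlapped that of 3 months (0.00830 to 1.81%). Of the 2 members at 3 months, 1 held endothelial RNA.

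The levels in the whole gate did not follow 1 order. After thinning, a Cxcl9 UMI was found in 7.83%, 14.8%, 2.62% and 8.24% of gate cells from 1 to 16 months and an Iigp1 UMI in 19.3%, 34.8%, 19.7% and 28.8%. Cxcl10 was highest at 16 months, at 17.2% (15.8 to 18.6%) against 10.9% (9.19 to 12.8%) at 1.5 months. Isg15 was lowest there, at 16.6% (15.2 to 18.0%) against 28.2% at 1.5 and 3 months and 41.6% at 1 month.

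**Figure D5:**
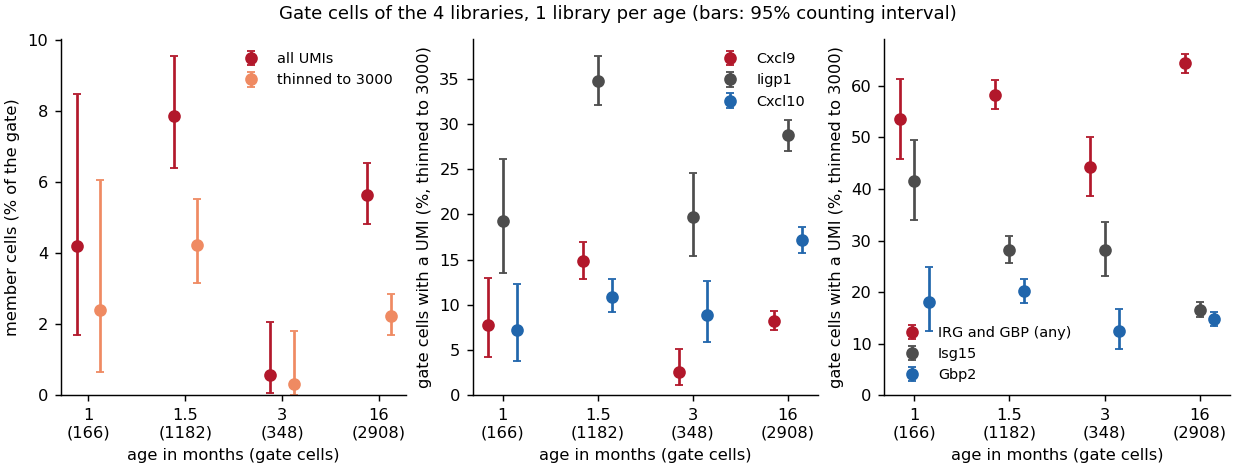
Adipoq stromal gate cells of the 4 libraries by age (x axis, gate cells in brackets): members as a share of the gate with all UMIs and after thinning to 3000 UMIs (left), and share of thinned gate cells with a UMI of Cxcl9, Iigp1 and Cxcl10 (middle) and of any IRG or GBP gene, Isg15 and Gbp2 (right), with 95% counting intervals. The member share is highest at 1.5 months (7.87%) and lowest at 3 months (0.575%), while Cxcl10 is highest (17.2%) and Isg15 lowest (16.6%) at 16 months.

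The 93 members at 1.5 months allowed the same comparison in a library that the 16-month choice did not use, though the rule is the same. With all members, 151 of 7550 genes were at least 2-fold higher there (2%) and 153 lower (2.03%). Without cells with endothelial RNA, 140 of 7528 genes were at least 2-fold higher (1.86%) and 162 lower (2.15%), from 601044 UMIs in members against 1868753 at 16 months. Of the 56 genes higher at 16 months, 41 could be measured at 1.5 months, 39 had a ratio above 1 and 33 were at least 2-fold higher. These 33 are 58.9% of the 16-month genes and 23.6% of the 1.5-month genes. Of the 33, 29 stood on the interferon and immune lists. All 7 measured IRG genes (median 5.41) and all 4 GBP genes (median 3.59) were at least 2-fold higher.

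Ratios of single genes at 1.5 months are given beside those at 16 months. Cxcl10 was at 1018 against 38.95 CPM at 1.5 months, 26.1-fold against 8.73-fold at 16 months, with a lower comparison level. Gbp2 was 5.76-fold higher (4.84 to 6.86), Tap1 3.18-fold (2.40 to 4.18), Il18bp 3.26-fold and Isg15 3.86-fold (3.27 to 4.54). Nlrc5 was at 1.53 and Gdf15 at 0.737 there, against 2.02 and 2.40 at 16 months. The members at 1.5 months also held RNA of other lineages. The 8 neutrophil markers were 15.5-fold higher in sum, and 2002 of their 2147 UMIs came from 1 cell. Apart from that cell's UMIs, their level was 234 CPM against 224 CPM. The macrophage markers were 4.12-fold higher in sum (3.37 to 5.02), with 148 of 181 UMIs in 1 cell. The mural markers were 2.06-fold higher (1.75 to 2.43), with 112 of 207 UMIs in 1 cell, and 1.89-fold higher without cells with endothelial RNA. The endothelial markers were at 69.4 against 29.3 CPM, 2.37-fold (1.61 to 3.43). The part of these in the 1.5-month ratios was not tested.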

How the data were processed

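Td+ cells were profiled by droplet single-cell RNA sequencing, with 1 library per labelled age. The authors deposited raw UMI counts per gene and cell, with no normalization. The submitters' processing notes name Cell Ranger 3.0.2, Seurat 2 and mm10. The 16-month table lists 31054 genes and the others 27999, so the gene references may differ across ages, which was not tested.

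The filter kept cells in which 200 to 6000 genes were detected and mitochondrial UMIs did not pass 5%, and left 6143 of 9229 barcodes at 16 months and 2892 cells over the mitochondrial limit. This is fewer cells than the study describes for that age. Beyond the limit of 6000 genes no doublets were removed. In the top 8% of Scrublet scores, where ties took 6.66% of cells, were 9.76% of members and 5.65% of comparison cells. The 16-month library shared 1 to 2 barcodes with each other library, and its members 0. The total per library was 32672631 to 108227184 UMIs.

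UMIs were summed per group of cells and scaled to CPM with exact Poisson intervals. Ratios have exact conditional binomial intervals and shares Clopper-Pearson intervals. Genes with a mean of at least 10 CPM and 20 UMIs were measured, and the code was tested on simulated data. The text names list genes that a result turns on and the 20 largest and 10 smallest ratios, also without endothelial RNA. Results on 1 gene of the lists are not reported here. The members, lists and thresholds were chosen with earlier results of these data known. Leaving out cells with endothelial RNA was chosen after seeing the data. Python 3.11.15, numpy 2.4.6, scipy 1.17.1 and scanpy 1.11.5 were used.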

Additional observations from a re-analysis of the deposited data

Results flagged for a closer look

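At 16 months, 19 cells outside the filter met the member rule. They were among 636 cells of the Adipoq stromal gate with more than 5% mitochondrial UMIs, a share of 2.99% (1.81 to 4.63%), and their median was 5.77% mitochondrial UMIs. They drew attention because they lie in data that the comparisons did not use. Their summed IRG and GBP level without Iigp1 was 1368 CPM, against 357 CPM in 347 such cells with 0 UMIs of Cxcl9 and Iigp1, a ratio of 3.83 (3.27 to 4.47). Cxcl10 was at 558 against 94.1 CPM.

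Saa3, an acute phase gene, had opposite directions in 2 libraries without cells with endothelial RNA. The ratio of members over comparison cells was 2.81 (2.13 to 3.68) at 16 months and 0.485 (0.189 to 1.05) at 1.5 months. The difference was not tested, and 52 of the 82 UMIs of the 16-month members came from 1 cell.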

How the results depend on the processing

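No paired analysis was possible because each age was 1 library, and for the same reason no replicate could be left out. The member share (5.64%) moved to 9.90% with at least 1 UMI of each gene, 2.30% with at least 4 of Cxcl9 and 2 of Iigp1, and 2.22% after thinning to 3000 UMIs. The other 8 alternatives gave 5.23 to 5.90%.

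The 94 genes at least 2-fold higher and 10 lower became 54 and 0 with at least 1 UMI of each gene, 172 and 84 with at least 4 and 2, and 207 and 109 after thinning. They became 55 and 17 without cells with 3 or more UMIs of other lineages, 56 and 16 without endothelial RNA, and 44 and 29 also without members with 10 or more Cxcl9 UMIs. A mean of at least 5 CPM gave 156 and 55, one of 30 CPM 35 and 4, no minimum 1420 and 2991, a 1.5-fold threshold 232 and 124, and a 3-fold threshold 52 and 1. The lower count also moved to 18 with the gate at 40 Cxcl12 and 4 Adipoq, 45 at 160 and 16, 18 with no limit on Ptprc, 16 for cells with 5000 to 20000 UMIs and 33 with means over cells. Fewer cells or genes enter several of these by construction, and otherwise the cause was not tested.

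Ratios changed side of 1 for some genes. Without cells with RNA of other lineages they were 0.968 for Cldn5, 0.371 for Ctla2a and Plvap, 0.696 for Egfl7, 0.530 for F8, 0.309 for Flt4, 0.619 for Ubd and 0 for Emcn, Flt1, Lipg, Mmrn2 and Stab2. Without endothelial RNA they were 0.767 for Cdh5, 0.339 for Ctla2a, Emcn and Plvap, 0.664 for Egfl7, 0.548 for F8, 0.288 for Flt4, 0.885 for Kdr, 0.639 for Ubd and 0 for Flt1, Lipg, Mmrn2 and Stab2. Cdh5, Egfl7, Emcn, Flt1 and Kdr are among the markers that chose the cells left out in both settings, so their fall follows from that choice. With the gate at 160 and 16, F8 was at 0.748, Foxq1 at 0.965 and Mmrn2 at 0.997. Foxq1 was at 0.465 with at least 4 and 2 UMIs and 0.552 after thinning. With at least 1 UMI of each gene, Hba-a2 was at 2.18, Hbb-bs at 1.396 and Hbb-bt at 1.39. Of 73 named genes past 2-fold, 60 to 73 stayed on their side of 1 across 12 alternatives, with 60 in the setting without endothelial RNA. With 1 library, depth limits counting error only, and the spread between mice is unknown.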
